A study of Mus musculus with 38 samples.

Results

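The genes described here are 10 genes by which fibroblasts are known: the fibrillar collagen genes Col1a1, Col1a2 and Col3a1, the fibril-associated collagen gene Col12a1, and Dcn, Thy1, Postn, Fn1, Acta2 and Tagln. They were taken by name, with no threshold on a measured value, though earlier results of these data were known when the list was made. All 10 were found among the 35976 genes of an FPKM table of 17 libraries, the 37108 genes of an FPKM table of 8 libraries and the 20695 genes of a single-cell count table. The study asked how SALL4, the NuRD complex and the signal BMP4 together set the fate of mouse embryonic fibroblasts (MEFs) that receive transcription factors by retrovirus, and these genes follow the starting identity of those cells. RNA was measured in bulk and in single cells, open chromatin by ATAC-seq and the binding of SALL4 and the mark H3K27ac by Cut&Tag.

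The MEFs came from E13.5 embryos of OG2 males and 129S4/SvJaeJ females. JGES stands for Jdp2, Glis1, Esrrb and Sall4 together, JGE for the set without Sall4, JGEO for JGE with Oct4 (gene symbol Pou5f1), and JGESO for all 5 factors. Cells were infected in a medium with serum and then moved to the serum-free, chemically defined medium iCD3, either without BMP4 (BMP4-) or with 10 ng/ml BMP4 (BMP4+). JGES was sampled at day 0 and at days 1, 3, 5 and 7 of each arm, and JGE, JGEO and JGESO at day 7 of each arm. In a separate experiment MEFs received SALL4-WT or SALL4-delN12 alone and were sampled at days 1, 5, 9 and 11. SALL4-delN12 lacks the N-terminal stretch by which SALL4 recruits the repressive NuRD complex. Each condition is 1 library, so conditions were compared by size of difference alone, without p-values. Cultures are mixtures, and in bulk RNA fewer cells of a type cannot be told apart from less RNA per cell.

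Fibroblasts build the loose matrix of connective tissue. Type I collagen is a fibre of chains from Col1a1 and Col1a2, type III collagen (Col3a1) joins it in soft tissues, and type XII collagen (Col12a1) and the small proteoglycan decorin (Dcn) coat the fibres. Fibronectin (Fn1) is laid down early and anchors cells through integrins, periostin (Postn) is a matricellular protein of growing and healing matrix, and Thy1 is a surface glycoprotein widely used to mark fibroblasts. Smooth muscle actin (Acta2) and transgelin (Tagln), an actin-binding protein, belong to the contractile fibres that fibroblasts form on stiff culture plastic in serum. Their transcription is classically driven through CArG boxes, the sites of serum response factor. Repression of such genes is one of the first steps known in reprogramming.

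In mm10 with GENCODE M21, Col1a1 lies at chr11:94936224-94953042, Col1a2 at chr6:4504814-4541544 and Col3a1 at chr1:45311538-45349706, all on the plus strand. Dcn at chr10:97479609-97518143, Thy1 at chr9:44043384-44048579 and Postn at chr3:54361109-54391037 are on the plus strand too. The minus strand carries Col12a1 at chr9:79598991-79718831, Fn1 at chr1:71585520-71653200, Acta2 at chr19:34241090-34255590 and Tagln at chr9:45929619-45936058. The 3′ end of Tagln overlaps that of Pcsk7, on the opposite strand, by 108 bases (chr9:45929619-45929726). How the authors' counting treated strand is not given in the sources used here, so reads of that stretch may count for either gene.

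RefSeq (GRCm38.p6) upstream sequences were at hand for 4 of the 10 genes. The first set shows the closest matches to a CArG box in the 250 bases before the RefSeq start of Acta2 and Col1a2, each with 1 mismatch and with the 10 matching letters in capitals. Positions count back from the RefSeq start, and each sequence reads 5′ to 3′ on the gene's strand.
Acta2, chr19:34255438-34255467, minus strand, positions -84 to -75: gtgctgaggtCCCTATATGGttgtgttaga
Acta2, chr19:34255388-34255417, minus strand, positions -34 to -25: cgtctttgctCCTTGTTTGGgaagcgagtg
Col1a2, chr6:4505380-4505409, plus strand, positions -228 to -219: taaagtgcttCCAAACTTGGcaagggcgag
Col1a2, chr6:4505499-4505528, plus strand, positions -109 to -100: aagaatggaaCCAATTTAAGaagccccgta

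These RefSeq starts lie 217 bases (Acta2) and 125 bases (Col1a2) inside the GENCODE transcripts, so both Acta2 stretches lie after the GENCODE start, inside the transcript, and the Col1a2 stretches lie to either side of it. An exact CArG box on either strand was in none of the 4 genes' windows and in 1.48% of all 32536 distinct upstream sequences. At most 1 mismatch was allowed in 18.6% of them, and 2.97% held such a match 2 or more times, as Acta2 and Col1a2 did. The second Col1a2 match overlaps a CCAAT box, a motif present in 33.8% of upstream sequences.

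The second set is shown because Postn had the largest difference with BMP4 of the 10 genes, and because Col3a1 and Postn, of the genes with a sequence at hand, were those whose promoter peak in MEFs was seldom or never found again in the SALL4 libraries. Capitals mark TATAAA, found in 12.3% of upstream sequences, and in Col3a1 also CATTCC, the reverse complement of GGAATG, the motif bound by TEAD factors, found in 12.6%.
Postn, chr3:54360857-54361106, plus strand: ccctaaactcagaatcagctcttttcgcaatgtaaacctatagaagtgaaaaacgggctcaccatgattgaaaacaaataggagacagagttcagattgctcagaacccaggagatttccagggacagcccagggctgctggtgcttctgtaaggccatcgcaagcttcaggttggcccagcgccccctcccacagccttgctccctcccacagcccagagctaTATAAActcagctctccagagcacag
Col3a1, chr1:45311288-45311537, plus strand: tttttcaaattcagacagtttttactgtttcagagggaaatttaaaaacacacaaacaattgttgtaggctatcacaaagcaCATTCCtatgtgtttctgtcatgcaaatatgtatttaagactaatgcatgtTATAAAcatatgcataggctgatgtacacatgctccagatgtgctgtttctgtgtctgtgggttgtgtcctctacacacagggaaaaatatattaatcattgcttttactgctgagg

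TATAAA stands at positions -26 to -21 of Postn and at positions -117 to -112 of Col3a1. GGAATG was also in the Acta2 window, at positions -146 to -141. TGANTCA, the letters of an AP-1 site, was in none of the 4 genes' windows and in 6.73% of all upstream sequences. Both strands were searched. These matches are letters in a window and no evidence of a bound factor.

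Sall4 RNA, in which delivered RNA and that of the cells' own gene are not separated, followed the labels. It was at 174 to 273 FPKM in the JGES and JGESO libraries of the table of 8, at 28.9 and 30.3 FPKM in JGEO and at 2.09 and 6.23 FPKM in JGE. The day 0 library already held delivered RNA (Esrrb 240 FPKM, Jdp2 375 FPKM), so it shows infected fibroblasts rather than untouched ones. Glis1 was at 0.450 FPKM at day 0 and at no more than 1.13 FPKM (JGES with BMP4 at day 7) in any library. Its delivery could therefore not be seen in these values. Over the 17 libraries, the sum of 6 further fibroblast markers (Pdgfra, Pdgfrb, Twist1, Prrx1, Lrp1, Cd248) ranged from 82.4 to 574 FPKM with its maximum at JGES day 0. Pluripotency markers summed to 0.314 to 893 FPKM and PrE (primitive endoderm) markers to 10.4 to 140 FPKM.

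At day 0 the contractile genes and Fn1 stood near the top of the transcriptome. Tagln was at 1228 FPKM (rank 30 of 12565 genes with at least 1 FPKM), Acta2 at 983 (rank 43) and Fn1 at 708 (rank 64). The type I collagen genes followed, with Col1a2 at 553 FPKM and Col1a1 at 524. Thy1 (73.5), Col12a1 (58.7), Postn (56.7) and Col3a1 (37.8) came well after them. Dcn was barely present at 1.12 FPKM, which sets it apart from the other 9 genes. The marker label therefore held for 9 of the 10 genes in these infected MEFs.

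Without BMP4 the JGES cells lost this program within days, and the contractile genes lost it first and furthest. Changes were taken as differences of log2(FPKM + 1), and a gene counted as changed at a difference of at least 1, that is 2-fold, if it had 1 FPKM or more in either library. Counts of 2-fold genes follow this rule, whereas the size of a change given as a fold is the ratio of the FPKM values without the added 1, which is larger for low genes. By day 1, 8 of the 10 genes were at least 2-fold below day 0, against 9.28% of all 13789 genes tested. At day 3 it was 9 of 10 against 10.5%, at day 5 9 of 10 against 10%, and at day 7 9 of 10 against 10.4%. None was 2-fold higher at any day. The 10 genes had a median difference from day 0 of -2.30, -3.84, -4.71 and -3.93 at days 1, 3, 5 and 7, where the median over all genes tested lay between 0.04 and 0.29. All later libraries share the 1 day 0 library, and they differ from it in medium as well as in time, which cannot be told apart.

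Acta2 was at 983 FPKM at day 0 and then at 23.8, 5.37, 3.22 and 7.66 FPKM at days 1, 3, 5 and 7. Tagln was at 1228, 58.8, 13.5, 8.34 and 21.6 FPKM. Both were already far down at day 1, 41.2-fold and 20.9-fold (differences of -5.31 and -4.36), with their lowest levels at day 5, 305-fold below day 0 for Acta2 and 147-fold for Tagln. The 2 genes encode partners on the same actin fibre, and in the 17 libraries their log2 levels had a Pearson r of 0.91.

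The type I collagen genes went down in step. Col1a1 was at 524, 72.7, 19.4, 12.1 and 20.2 FPKM at days 0, 1, 3, 5 and 7, and Col1a2 at 553, 98.1, 24.6, 13.8 and 15.8. Their differences from day 0 were -2.83 and -2.48 at day 1 and -5.33 and -5.23 at day 5. By day 5 the RNA of both chains of the type I collagen molecule was 43.5-fold and 40.1-fold under its starting level.

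Col3a1 was at 37.8, 6.36, 3.73, 4.58 and 6.64 FPKM and Col12a1 at 58.7, 11.9, 2.11, 1.32 and 1.45 FPKM over the same days. Col12a1 went the further of the pair, with a difference of -4.61 at day 7 against -2.35 for Col3a1. Thy1 was at 73.5, 31.5, 5.98, 1.81 and 6.81 FPKM, with its lowest level, 40.5-fold under day 0, at day 5. Of the surface and matrix genes, Thy1 was slower than the collagens at day 1 and reached a similar depth later.

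At days 3 and 5, Fn1 and Postn had the smallest differences of the 9 genes that were high at the start. At day 7 these were Fn1 (-1.93), Col3a1 (-2.35) and Postn (-2.38). Fn1 was at 708, 233, 148, 141 and 185 FPKM, and so kept a level above 100 FPKM throughout. Postn was at 56.7, 52.0, 11.5, 11.6 and 10.1 FPKM, with no 2-fold change at day 1 (difference -0.12) and differences of -2.20 to -2.38 afterwards. Dcn stayed between 0.449 and 1.64 FPKM and was the gene whose difference reached 1 at no day, although its FPKM was 2.49-fold below day 0 at day 5 and 2.06-fold at day 7.

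**Figure D1:**
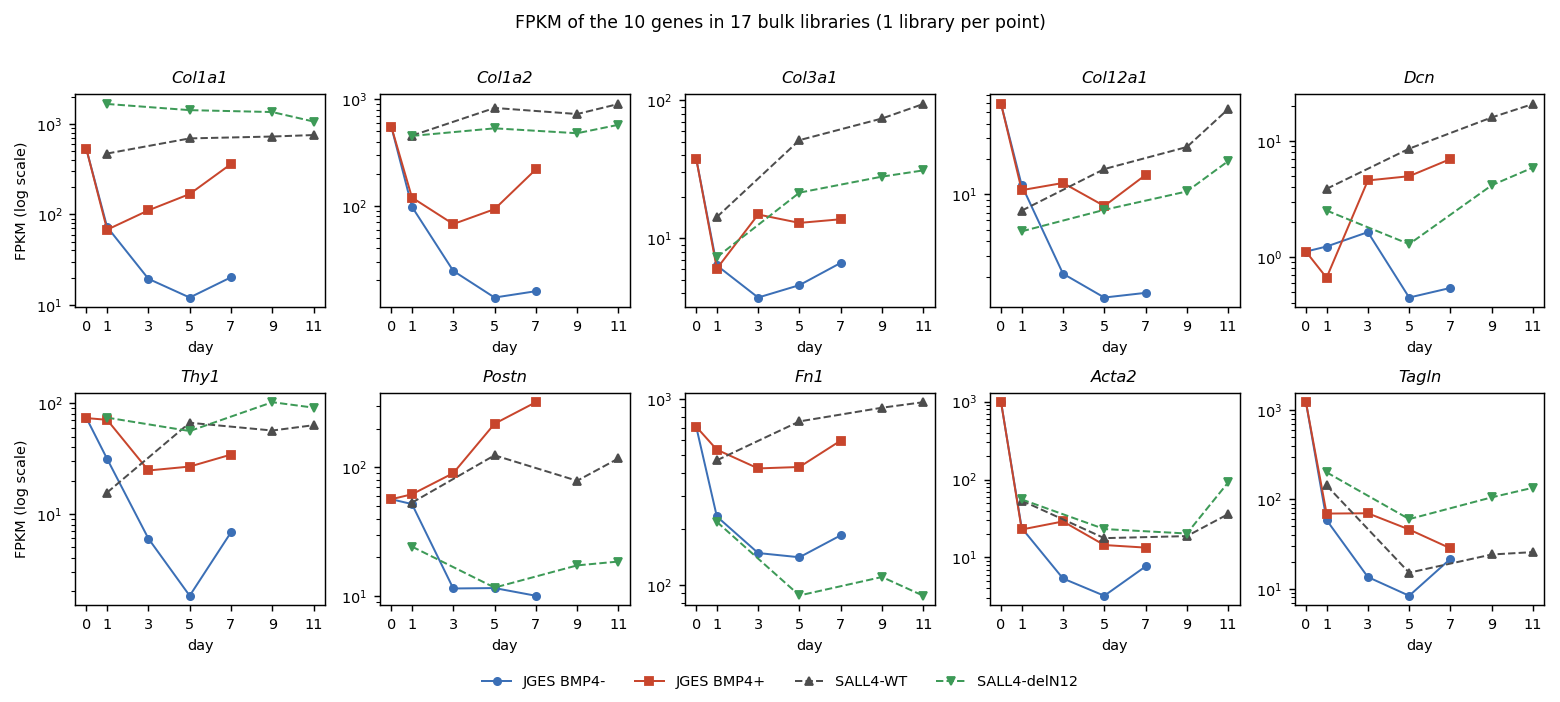
FPKM of the 10 genes in JGES cells by day, on a logarithmic vertical axis, with 1 point per library and separate lines for BMP4- and BMP4+ that start from the shared day 0 library. Without BMP4 the contractile genes Acta2 and Tagln drop from the highest levels of the 10 genes to under 10 FPKM by day 5, and with BMP4 Postn and Dcn end above day 0.

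With BMP4 the loss was smaller, and part of the matrix genes came back by day 7, while the contractile genes stayed low. At day 1, 6 of 10 genes were 2-fold below day 0 (9.05% of all genes), at day 3 and day 5 7 of 10 (9.98% and 9.85%), and at day 7 6 of 10 (9.47%). At day 7, 2 of the 10 genes, Postn and Dcn, were 2-fold above day 0, where 17.5% of all genes were. The median difference of the 10 genes moved back from -2.27 at day 1 to -1.84, -1.56 and -1.20 at days 3, 5 and 7.

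Postn with BMP4 was at 61.9, 90.4, 219 and 321 FPKM at days 1, 3, 5 and 7, from 56.7 at day 0. Dcn was at 0.665, 4.58, 4.98 and 7.00 FPKM. Day 7 therefore held more periostin and decorin RNA than the starting fibroblasts, 5.67-fold more for Postn and 6.27-fold for Dcn, the latter at a low level.

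Col1a1 was at 67.8, 111, 168 and 361 FPKM with BMP4 and ended 1.45-fold below day 0. Col1a2 was at 120, 67.5, 93.2 and 220 FPKM, with its lowest level at day 3. Col1a1 was lowest at day 1 and higher at each later day, and both chains were higher at day 7 than at day 1. Fn1 was at 532, 422, 430 and 596 FPKM and reached a difference of 1 at no day.

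Col3a1 was at 6.03, 14.9, 12.9 and 13.7 FPKM, and Col12a1 at 10.9, 12.5, 7.96 and 14.6 FPKM. Thy1 was at 71.0, 24.7, 26.8 and 34.4 FPKM. These 3 genes stayed below day 0 at the end, with differences of -1.40, -1.93 and -1.08.

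Acta2 with BMP4 was at 22.8, 29.0, 14.4 and 13.4 FPKM, and Tagln at 69.5, 70.0, 46.0 and 28.3 FPKM. Neither came back: at day 7 they were 73.5-fold and 43.4-fold under day 0. Only part of the matrix genes parted from them in the BMP4 arm. At day 7 Postn, Dcn, Col1a1 and Fn1 were above day 0 or within 2-fold of it. Col1a2, Col3a1, Col12a1 and Thy1 were still 2-fold lower, as Acta2 and Tagln were.

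Counted from day 1 instead, a comparison chosen after seeing the data, 7 of 10 genes were 2-fold lower at day 7 without BMP4 (10.5% of all genes). Day 1 and day 7 share the medium iCD3, but a lasting response to the move into it was not separated. With BMP4, 4 of 10 were 2-fold higher at day 7 than at day 1 (15.7% of all genes), namely Col1a1 (2.396), Postn (2.36), Dcn (2.27) and Col3a1 (1.07). Tagln (-1.27) and Thy1 (-1.02) were lower.

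The same-day libraries give the size of the BMP4 difference directly. At day 1, only Fn1 (1.19) and Thy1 (1.15) of the 10 genes were 2-fold higher with BMP4, where 3.75% of all genes were. At day 3 all 10 were (6.81% of all genes), at day 5 all 10 again (8.78%), and at day 7 7 of 10 (10.3%). None was 2-fold lower with BMP4 at any of the 4 days. The 10 genes had medians of 0.09, 2.00, 2.19 and 2.28 over the 4 days, beside all-gene medians of -0.02 to -0.18.

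At day 7 the differences were 4.86 for Postn, 4.10 for Col1a1 and 3.72 for Col1a2, and the ratios of FPKM were 31.9-fold, 17.9-fold and 13.9-fold. The differences were 2.67 for Col12a1, 2.37 for Dcn, 2.18 for Thy1 and 1.69 for Fn1. Below the 2-fold mark stood Col3a1 (0.95), Acta2 (0.73) and Tagln (0.37). Acta2 and Tagln had their largest differences earlier, 2.23 for Acta2 at day 3 and 2.33 for Tagln at day 5, and at day 7 the ratios of FPKM were 1.74-fold for Acta2 and 1.31-fold for Tagln. The sum of the 6 further fibroblast markers at day 7 was 203 FPKM with BMP4 and 100 without, and that of the pluripotency markers 63.4 and 893 FPKM. The part of these cell mixtures in the differences was not tested.

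**Figure D2:**
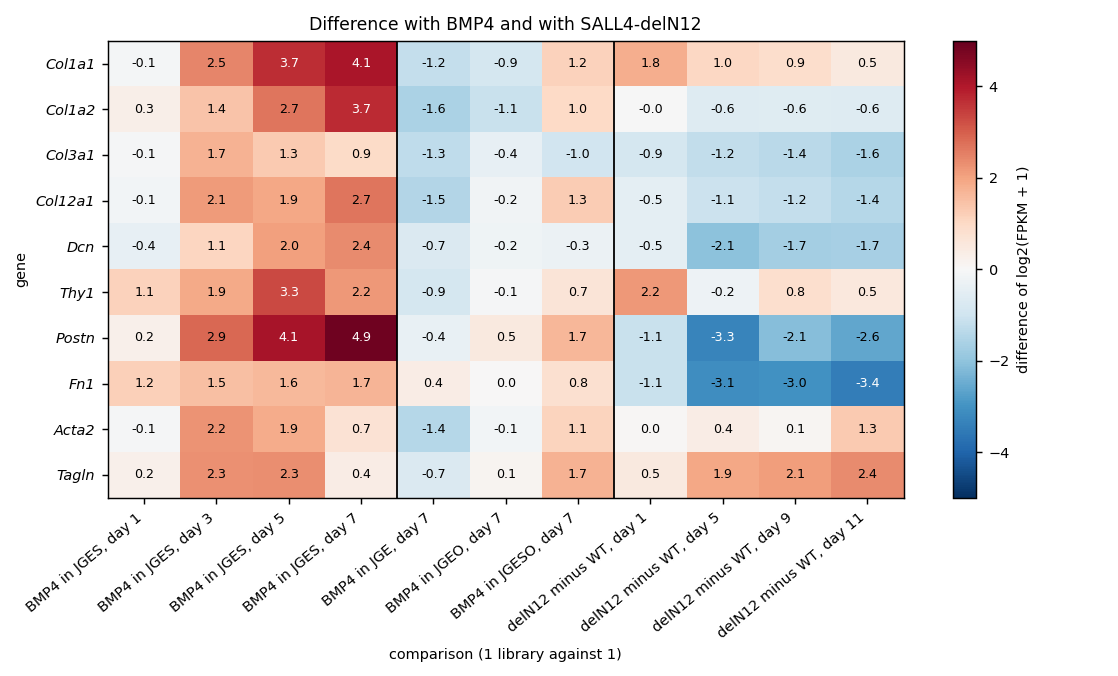
Differences of log2(FPKM + 1) of the 10 genes, from 1 library per condition. They are between BMP4+ and BMP4- JGES cells at days 1, 3, 5 and 7 and JGE, JGEO and JGESO cells at day 7. The last columns are between SALL4-delN12 and SALL4-WT cells at days 1, 5, 9 and 11. With BMP4 in JGES all 10 genes are above 1 at days 3 and 5, while in the SALL4 comparison Fn1 and Postn lie far below 0 and Tagln above.

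Other genes of the same biology, in lists chosen with earlier results of these data known, were mostly lower at day 7 than at day 0, and less so against day 1. Without BMP4, 20 of 22 tested genes of other interstitial matrix were 2-fold lower at day 7 than at day 0 and none higher (median -3.28), among them elastin (Eln, -6.48) and thrombospondin 1 (Thbs1, -5.28). With BMP4 it was 17 of 22 (median -1.90). Set against day 1 of the same arm, 12 of 20 were lower and 2 higher without BMP4 (median -1.52), but with BMP4 5 were lower and 1 higher (median 0.13). The summed level of the list with BMP4 was nonetheless lower, 604 FPKM at day 7 and 1365 FPKM at day 1, the opposite sign to the median. The medians over all genes tested were 0.19 without BMP4 and 0.055 with it. Of 17 actin-linked contractile genes, 16 were lower than at day 0 without BMP4 (median -2.90) and 15 with it (median -2.42). Against day 1 of the same arm, 6 of 16 were lower without BMP4 (median -0.58) and 2 of 16 with it (median -0.21), and none higher. Calponin 1 (Cnn1), a partner of smooth muscle actin, differed from day 0 by -6.68 and -5.99 in the 2 arms, and the myosin light chain gene Myl9 by -5.71 and -4.47.

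The collagen processing list, which holds the enzymes that hydroxylate, trim and crosslink collagen, showed the arms apart. Without BMP4, 9 of its 14 genes were lower at day 7 than at day 0 and none higher (median -1.45), with BMP4 3 were lower and 3 higher (median -0.04). Against day 1 of the same arm, 5 were lower and 3 higher without BMP4 (median -0.66), and 1 was lower and 6 higher with it (median 0.74). Lox, the main crosslinking oxidase, was lower than at day 0 in both arms (-5.83 and -3.78). In the direct comparison at day 7, 7 of 14 processing genes were higher with BMP4, with the procollagen C-proteinase Bmp1 (3.58) and its enhancer Pcolce (2.43) in front. Of the other interstitial matrix genes 12 of 20 were higher, such as Eln (3.01) and Col6a3 (2.98), and 1, Fmod, was lower (-2.15).

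The TGF-beta pathway is the classical inducer of these genes. Of its 14 listed genes 7 were lower at day 7 than at day 0 without BMP4 and none higher, and with BMP4 6 were lower and 1 higher. Against day 1 of the same arm, 2 were lower and 3 higher without BMP4, and 1 was lower and 5 higher with it. Tgfb1, the ligand and the 1 listed gene that was higher than at day 0 with BMP4, was at 12.4 FPKM at day 0. At day 7 it was at 16.99 FPKM without BMP4 and 107 with BMP4. Of matrix receptors, 9 of 10 were lower than at day 0 without BMP4 and 6 of 11 with it. Against day 1, 4 of 10 were lower without BMP4, and with it none of 11 was lower and 3 were higher. The basement membrane list moved less from day 0, with 3 of 8 lower and 1 higher without BMP4. Against day 1, none was lower and 3 were higher in that arm. The gene that was higher than at day 0, the laminin chain Lama1, went from 0.556 to 30.1 FPKM.

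At day 7 the 4 factor sets differed in the direction of the BMP4 difference. In JGE, 5 of 10 genes were 2-fold lower with BMP4 (4.78% of all genes) and none higher, with a median of -1.03. In JGEO, 1 was lower (Col1a2, against 1.95% of all genes; median -0.16). In JGESO, 5 of the 9 genes tested were higher (5.29% of all genes; median 1.05), and in JGES 7 of 10 (10.2%; median 2.27). Marker sums differed between the sets too. Without and with BMP4, PrE markers were at 17.1 and 10.6 FPKM in JGE, 28.3 and 35.4 in JGEO, 315 and 253 in JGESO and 52.5 and 136 in JGES. Placenta markers were at 47.9 and 48.0, 46.4 and 61.6, 323 and 513, and 125 and 271 FPKM, and pluripotency markers at 23.9 and 33.3, 379 and 535, 419 and 274, and 870 and 62.0 FPKM. Fibroblast markers were at 299 and 274, 251 and 207, 354 and 413, and 97.5 and 198 FPKM. Their part in the differences was not tested. Dcn was under 1 FPKM in both JGESO libraries and was not tested there. These values come from the table of 8 libraries, whose copies of the JGES day 7 libraries are 0.974 to 0.978 times those of the table of 17.

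Col1a1 without and with BMP4 was at 293 and 128 FPKM in JGE, 151 and 82.3 in JGEO, 153 and 342 in JGESO, and 19.7 and 353 in JGES. Col1a2 was at 214 and 70.1, 128 and 58.1, 167 and 331, and 15.4 and 215 FPKM in the same order. Both type I collagen genes were thus lower with BMP4 in the sets without Sall4 and higher in the sets with it, and JGES without BMP4 had the lowest level of all 8 libraries.

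Postn was at 23.0 and 17.4 FPKM in JGE, 3.29 and 4.95 in JGEO, 5.15 and 18.35 in JGESO, and 9.83 and 314 in JGES. The level in JGES with BMP4 was above all 7 other libraries and 18.03-fold that of JGE with BMP4. Fn1 varied least, at 300 and 392, 208 and 211, 132 and 228, and 180 and 583 FPKM.

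Col3a1 followed another order, at 118 and 48.0 FPKM in JGE, 117 and 87.4 in JGEO, 95.4 and 48.7 in JGESO, and 6.47 and 13.4 in JGES. It was lower in both JGES libraries than in the 6 others, an order that was not counted over all genes. Col12a1 was at 22.5 and 7.56, 6.64 and 5.73, 1.34 and 4.71, and 1.42 and 14.3 FPKM.

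Thy1 was at 44.6 and 24.0 FPKM in JGE, 14.8 and 14.1 in JGEO, 49.0 and 77.6 in JGESO, and 6.64 and 33.6 in JGES. Dcn was at 9.73 and 5.56, 1.98 and 1.54, 0.721 and 0.389, and 0.530 and 6.85 FPKM. Acta2 was at 15.5 and 5.09, 2.63 and 2.29, 7.25 and 16.8, and 7.47 and 13.1 FPKM, and Tagln at 38.8 and 22.9, 7.25 and 7.96, 16.5 and 57.1, and 21.1 and 27.7 FPKM. The contractile genes were lowest in the JGEO libraries and highest in JGESO with BMP4.

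Against JGE without BMP4, 7 of 10 genes were 2-fold lower in JGES (16.9% of all genes), 6 in JGEO (11.9%) and 6 in JGESO (30.1%). These comparisons share the JGE library. In JGES the lower genes were the 4 collagen genes, Dcn, Thy1 and Postn, with differences of -1.15 (Postn) to -3.99 (Col3a1). In JGESO the median of all genes was itself at -0.26, and relative to it the median of the 10 genes, -1.09, is less far down.

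With BMP4, 4 of 10 genes were 2-fold higher in JGES than in JGE (12.1% of all genes), namely Postn (4.10), Col1a2 (1.60), Col1a1 (1.46) and Acta2 (1.21), and Col3a1 was lower (-1.76). In JGESO 5 were higher (11.1%), led by Col1a2 (2.22), and Dcn was lower (-2.24). In JGEO 3 were lower (4.29%), namely Postn (-1.63), Tagln (-1.42) and Dcn (-1.37).

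**Figure D3:**
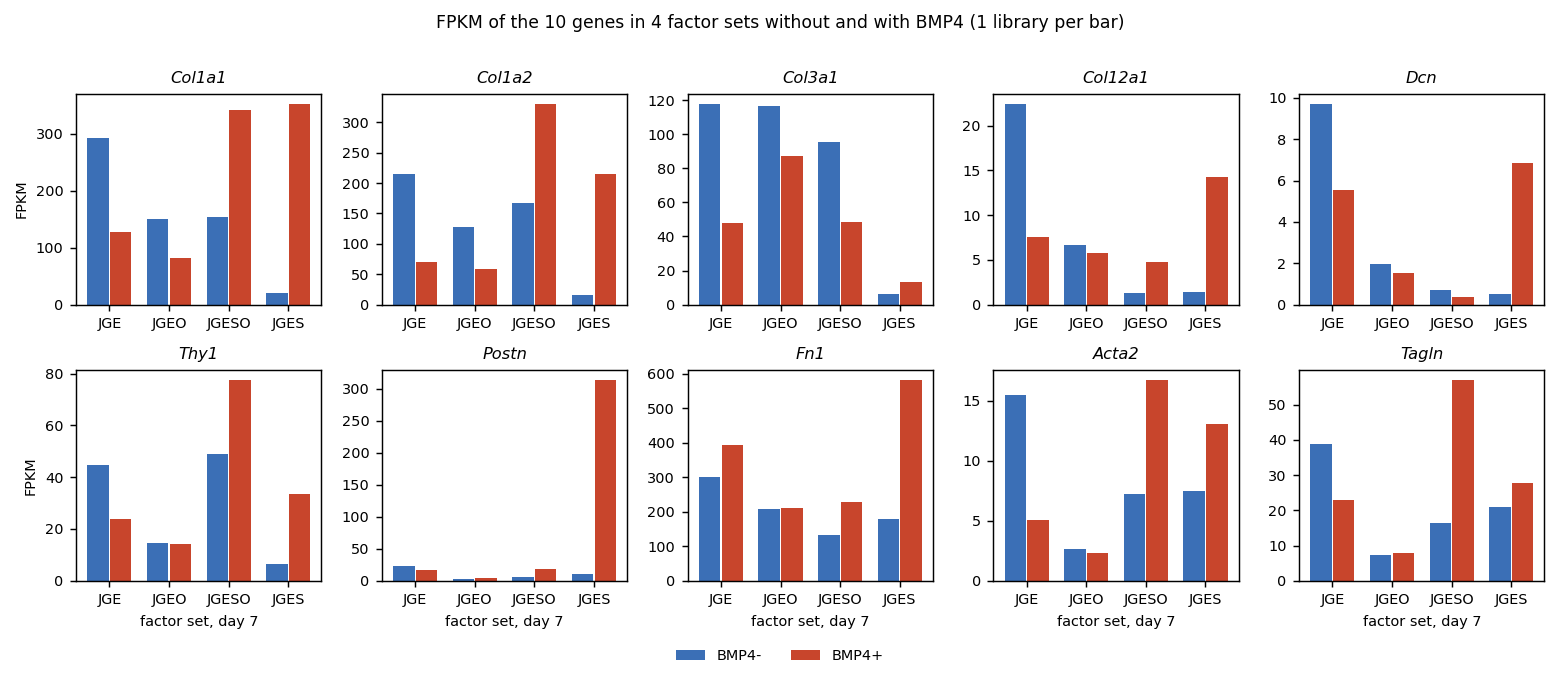
FPKM of the 10 genes at day 7 in JGE, JGEO, JGES and JGESO cells without and with BMP4, 1 library each, on a linear vertical axis. The collagen genes Col1a1 and Col1a2 are lower with BMP4 in JGE and JGEO and higher in JGES and JGESO, and Postn reaches 314 FPKM in JGES with BMP4.

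In cells with SALL4 alone the change over time differed by gene and by form of SALL4. In SALL4-WT cells, 6 of 10 genes were 2-fold higher at day 11 than at day 1 (11.5% of all genes), namely Col12a1 (2.71), Col3a1 (2.64), Dcn (2.16), Thy1 (1.96), Postn (1.13) and Fn1 (1.04), and Tagln was lower (-2.44). In SALL4-delN12 cells 2 of 10 were 2-fold higher (10.4% of all genes), Col3a1 (1.95) and Col12a1 (1.79), and 1 was lower (4.61%), Fn1 (-1.31). The differences of Col1a1 (-0.64), Tagln (-0.57) and Postn (-0.37) were below 0 there as well. These comparisons were chosen after seeing the data. No control library of this experiment was analysed here, and JGES day 0 is not its control.

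Between the SALL4 forms the genes split. At day 1, 2 of 10 were 2-fold higher in SALL4-delN12 (4.18% of all genes) and 2 lower (5.63%). At day 5 it was 2 higher (4.67%) and 5 lower (5.19%), at day 9 1 higher (6.09%) and 5 lower (5.75%), and at day 11 2 higher (6.55%) and 5 lower (6.58%). From day 5 on the lower genes were the same 5, namely Fn1, Postn, Dcn, Col3a1 and Col12a1, and Tagln was higher at each of the 3 days. The medians of the 10 genes were -0.24, -0.84, -0.89 and -1.04.

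Fn1 was at 467, 756, 895 and 958 FPKM in SALL4-WT and at 218, 87.7, 110 and 87.4 FPKM in SALL4-delN12 at days 1, 5, 9 and 11. Postn was at 53.3, 124, 78.8 and 118 FPKM against 24.3, 11.7, 17.4 and 18.6. Both genes were lower in SALL4-delN12 at each of these days, which are 1 course per form and not replicates. At day 11 fibronectin RNA was 10.96-fold and periostin RNA 6.32-fold lower in SALL4-delN12.

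Dcn was at 3.88, 8.61, 16.0 and 20.9 FPKM in SALL4-WT and 2.52, 1.30, 4.16 and 5.92 in SALL4-delN12. Col3a1 was at 14.3, 51.4, 73.8 and 93.9 against 7.31, 21.4, 28.0 and 31.0 FPKM, and Col12a1 at 7.27, 16.4, 25.3 and 53.1 against 4.85, 7.38, 10.6 and 19.2. Both collagen genes went up from day to day under either form, with SALL4-delN12 the lower at each of the 4 days.

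Type I collagen behaved otherwise. Col1a1 was at 472, 693, 727 and 755 FPKM in SALL4-WT and at 1666, 1424, 1356 and 1065 in SALL4-delN12, with a difference of 1.82 at day 1. Col1a2, whose product joins the same molecule, was at 456, 830, 728 and 904 FPKM against 453, 534, 480 and 577, so that it was level at day 1 (-0.01) and lower in SALL4-delN12 later, without passing 2-fold. The ratio of the 2 chains therefore differed between the forms.

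Tagln was at 144, 15.1, 24.2 and 25.7 FPKM in SALL4-WT and 201, 60.2, 106 and 135 in SALL4-delN12, 5.26-fold higher in the latter at day 11. Acta2 was at 53.6, 17.7, 18.8 and 36.0 against 55.5, 23.1, 20.3 and 91.7 FPKM, apart by 2-fold at day 11 alone (1.33). Thy1 was at 15.6, 66.7, 56.8 and 63.4 against 74.3, 56.1, 102 and 91.5 FPKM, with a difference of 2.18 at day 1 and none past 2-fold later.

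The wider lists showed a similar split between matrix and contractile genes at day 11, and less of it before. Of 22 other interstitial matrix genes, 4 were lower and 5 higher at day 1, and 11 were lower at days 5 and 9, with 1 and 4 higher. Actin-linked contractile genes had medians of -0.03, 0.21 and 0.16 at days 1, 5 and 9. Of these, 3 of 17, 2 of 16 and 3 of 16 were higher, and 1 was lower at day 1. At day 11, 11 of 23 other interstitial matrix genes were lower in SALL4-delN12 and 2 higher (median -0.77), with Col6a2 (-2.72) and Vcan (-2.69) at the low end. Of 17 actin-linked contractile genes 7 were higher and none lower (median 0.67), with Myl9 (2.78) and Cnn1 (1.401) in front. Lox was at 6.48 FPKM in SALL4-delN12 and 74.5 in SALL4-WT. Placenta markers summed to 538 to 671 FPKM over the 4 SALL4-delN12 libraries and 109 to 147 over the SALL4-WT libraries, and fibroblast markers to 151 to 215 and 172 to 365. PrE markers summed to 13.9, 15.6, 44.6 and 128 FPKM in SALL4-delN12 at days 1, 5, 9 and 11 and to 14.7 to 21.3 FPKM in SALL4-WT, and at day 11 5 of the 6 were 2-fold higher in SALL4-delN12 (median 2.92). Their part in the differences was not tested.

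ATAC-seq showed open chromatin at the starts of all 10 genes in MEFs. Peaks are as the authors called them in each library, and their scores are not normalized between libraries, of which MEF had the most peaks (125470, against 78517 to 98422 in the SALL4 libraries). Within 2 kb of the GENCODE start, a MEF peak stood at 10 of 10 genes, against 67.3% of 21616 genes. The highest scores in MEFs were at Fn1 (1981), Acta2 (1543), Tagln (1494), Col12a1 (1331) and Col1a2 (1294), followed by Thy1 (467), Dcn (448), Col3a1 (409), Col1a1 (305) and Postn (131). The MEF peak covered all 250 upstream bases searched at Acta2 and Col1a2, 233 at Col3a1 and 135 at Postn.

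In the SALL4-WT libraries 6, 5, 6 and 7 of the 10 genes had a promoter peak at days 1, 5, 9 and 11, and in SALL4-delN12 7, 6, 7 and 8. The shares over all genes were 61.1%, 65.3%, 64.6% and 65.0% in SALL4-WT and 58.7%, 60.7%, 62.3% and 62.8% in SALL4-delN12. With peaks of a score of at least 100, it was 5 of 10 genes under either form at day 11. The shares over all genes were then 59.6% in SALL4-WT and 56.2% in SALL4-delN12. A score of at most 0.5 times the MEF score, or no peak, was found for 9 of 10 genes in SALL4-WT and 10 of 10 in SALL4-delN12 at day 1, against 69.8% and 63% of the 14543 genes with a MEF peak. At day 5 it was 9 of 10 in both forms, against 23.3% in SALL4-WT and 70.3% in SALL4-delN12. At day 9 it was 10 of 10 in SALL4-WT and 9 of 10 in SALL4-delN12 (39.9% and 41.3%), and at day 11 8 of 10 and 9 of 10 (22.3% and 47.6%). The share over all genes moved between 22.3% and 70.3% among libraries, whereas 8 to 10 of these 10 genes met the mark in each.

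Postn had no promoter peak in any of the 8 SALL4 libraries. Thy1 had a peak in SALL4-delN12 at day 11 alone (score 57.4) and Col3a1 in SALL4-delN12 at day 9 alone (57.6). RNA of Col3a1 nonetheless went up in both forms, and that of Postn reached 124 FPKM in SALL4-WT. Fn1 kept the highest scores, at 511, 835, 744 and 1112 in SALL4-WT and 420, 451, 593 and 555 in SALL4-delN12 at days 1, 5, 9 and 11. Acta2, with 1543 in MEFs, had no peak in SALL4-WT at days 5 and 9 and scores of 64.4 to 121 in the other 6 libraries. At Tagln the strongest peak in MEFs was centred 257 bases after the start. In the SALL4 libraries it was centred upstream, at -816 to -1090 bases, with scores of 67.9 to 176.

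Col1a1 was the exception at day 1, with a score of 431 in SALL4-WT against 305 in MEFs. That peak was centred 858 bases inside the gene, where the MEF peak lay at -29. Over gene bodies and 10 kb to each side, a count added after seeing the data, the 10 genes held 73 MEF peaks. Of these, 26 (35.6%) were met by a peak in SALL4-WT at day 1 and 42 (57.5%) in SALL4-delN12 at day 1, with the other libraries between. For all MEF peaks the share lay between 39.1% and 49.2%, so that over whole loci the genes were not far from the rest.

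**Figure D4:**
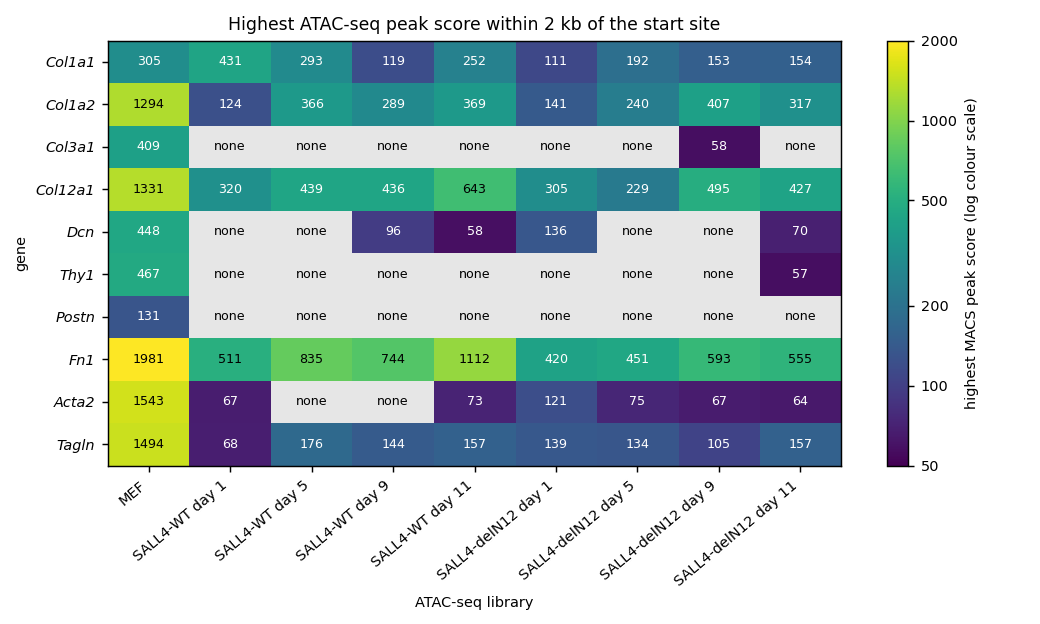
Highest score of an ATAC-seq peak within 2 kb of the start of each of the 10 genes in MEFs and in the 8 SALL4 libraries, as deposited and not normalized between libraries. MEFs have a peak at all 10 genes, Postn has none in any SALL4 library, and Fn1 has the highest score in each library.

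At day 6, Cut&Tag peaks of SALL4 stood at the promoters of 8 of 10 genes under both forms, against 52.5% of all genes in SALL4-WT and 39.1% in SALL4-delN12. Counting peaks with a score of at least 100, it was 3 of 10 genes in SALL4-WT, under the 39.3% of all genes, and 7 of 10 in SALL4-delN12, against 26.3%. Thy1 and Tagln had none under either form. The highest scores were at Fn1 in SALL4-WT (213) and at Postn in SALL4-delN12 (206). At Postn and Col3a1 the SALL4-WT peaks were centred at -2395 and -2188 bases, and at Acta2 at 183 bases after the start. Replicates were merged by the authors before peaks were called.

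H3K27ac, a mark of active promoters and enhancers, had peaks at 5 of 10 genes in SALL4-WT (48.5% of all genes) and at 6 of 10 in SALL4-delN12 (57.7%). With peaks of a score of at least 100, it was 3 of 10 in SALL4-WT (38.8%) and 5 of 10 in SALL4-delN12 (52.0%). Fn1 had scores of 146 in SALL4-WT and 421 in SALL4-delN12, and Col1a2 128 and 287. Col1a1 (103) and Tagln (51.3) had a peak in SALL4-WT alone, and Postn (318), Dcn (115) and Col12a1 (89.5) in SALL4-delN12 alone. Acta2 had 56.8 in SALL4-WT and 164 in SALL4-delN12. With no peak taken as a score of 0, the higher H3K27ac score stood beside the lower RNA level at both day 5 and day 9 in 7 of these 8 genes, the exception being Acta2, and in 37.2% of 10282 genes compared in this way. This count was chosen after seeing the data, the days of the assays differ, and scores were not normalized between libraries.

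Single cells show where in the day 7 JGES cultures the remaining RNA lay. The counts are UMIs, 1 per captured molecule, of 11335 cells with BMP4 (median 21205 UMIs) and 8685 without (median 12738). The authors' cell types were used. With BMP4 they were 7125 intermediate, 2372 ParE, 1453 endothelial and 385 placenta-like cells, and without it 6211 intermediate, 1825 pluripotent, 507 endothelial and 142 ParE cells. ParE was read as the PrE-like cells, since all 6 PrE markers were highest there in both samples. Parietal endoderm is another reading of this label. In both samples 5 of 6 fibroblast markers were highest in intermediate cells. The types were made from all genes of these cells, so differences between them are a description. The 2 samples shared 2 cell barcodes. Levels are CPM, that is the share of all UMIs of a cell type, on a fixed scale.

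The matrix genes were concentrated in the intermediate cells. Relative to these, 9 of 9 genes tested (at least 10 CPM in either type) were 2-fold lower in ParE cells with BMP4 (13.8% of all genes), 8 of 9 in endothelial cells (14.3%) and 8 of 9 in placenta-like cells (12%). Cells were also assigned by markers, to a type where at least 3 of its 6 markers, and of no other type, had a UMI, and otherwise to intermediate. With cells assigned in this way instead of by the authors' types, 0 of 9 were lower in placenta-like cells, where 1.08% of all genes were. Without BMP4 it was 5 of 7 in ParE cells (8.2%), 6 of 7 in endothelial cells (5.27%) and 6 of 7 in pluripotent cells (13.4%), and with cells assigned by markers 1 of 7 was lower in ParE cells (4.598% of all genes) and 1 higher. The median level over the 10 genes, as a percentage of that in intermediate cells, was 11.5% in ParE, 8.01% in endothelial and 15.5% in placenta-like cells with BMP4. Without BMP4 it was 8.12% in ParE, 21.3% in endothelial and 10.9% in pluripotent cells. The ParE value without BMP4 rests on few UMIs in 142 cells: 121 of Fn1, 46 of Col1a2, 10 of Acta2 and 0 to 5 of each other gene.

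With BMP4, Col1a1 was at 281 CPM in intermediate cells, 21.8 in ParE, 18.5 in endothelial and 19.9 in placenta-like cells. Postn was at 276, 23.9, 24.0 and 17.6 CPM in the same order, and Col1a2 at 331, 42.1, 28.3 and 17.5. The 3 other types lay close together, and free RNA in the droplets, which gives all types a low share, was not measured here. Without BMP4, Col1a1 was at 38.0 CPM in intermediate, 7.04 in pluripotent, 4.87 in endothelial and 2.65 in ParE cells, the last from 5 UMIs.

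Fn1 was the largest exception to this order. With BMP4 it was at 1342 CPM in endothelial cells, 466 in intermediate, 196 in placenta-like and 164 in ParE cells. Without BMP4 it was at 438 CPM in endothelial, 125 in pluripotent, 122 in intermediate and 64.0 in ParE cells. Endothelial cells thus held the highest fibronectin level in both samples, at 288% and 360% of the level in intermediate cells, and the pluripotent cells stood level with the intermediate ones. Endothelial cells are known to make fibronectin themselves. Thy1, at levels too low to be tested, was at 5.94 CPM in endothelial and 5.70 in intermediate cells without BMP4, and Col1a2 at 24.3 in ParE and 32.1 in intermediate cells. Tagln was at 120 CPM in intermediate and 61.0 in placenta-like cells with BMP4, and at 72.9 and 3.94 CPM in intermediate and pluripotent cells without.

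**Figure D5:**
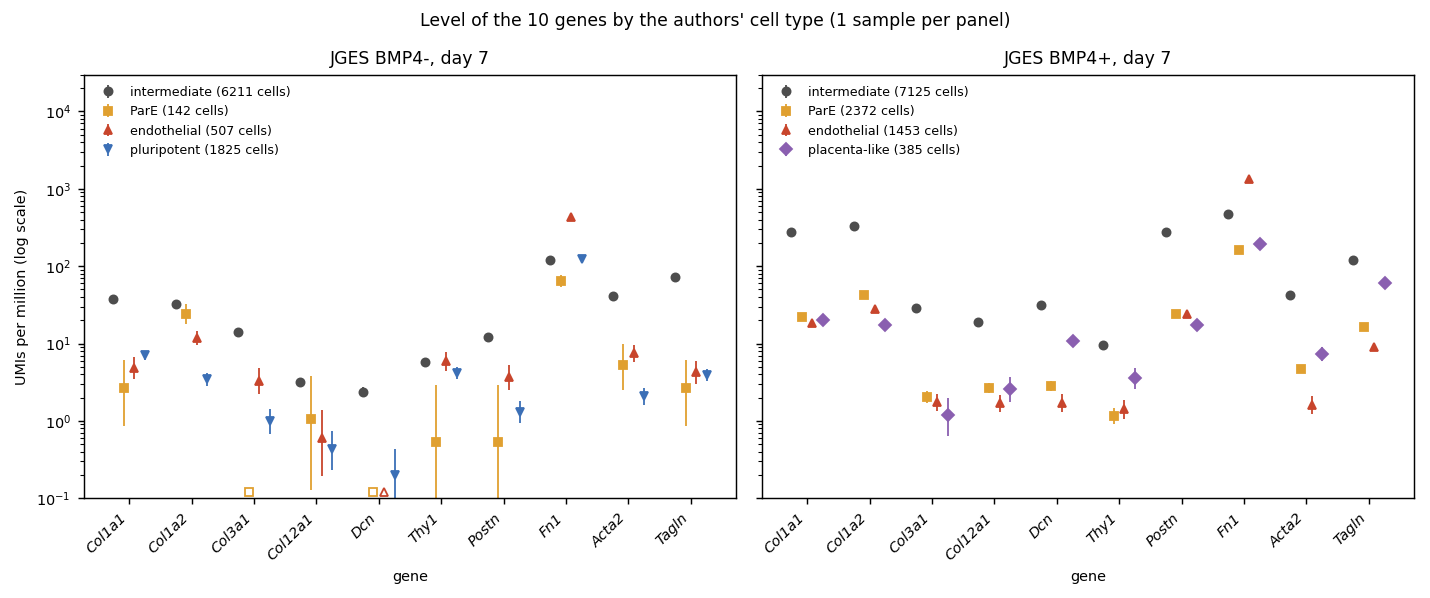
CPM of the 10 genes in each of the authors' cell types at day 7 of JGES cultures with and without BMP4, on a logarithmic vertical axis, with exact Poisson 95% intervals that cover counting error only. Intermediate cells are highest for most genes, and endothelial cells are highest for Fn1 in both samples.

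Within intermediate cells, 7 of the 9 genes tested were 2-fold higher with BMP4, where 29.9% of all genes were. Postn was at 276 CPM with BMP4 and 12.01 without (22.98-fold), Dcn at 31.5 and 2.37 (13.3-fold), Col1a2 at 331 and 32.1 (10.3-fold) and Col1a1 at 281 and 38.0 (7.39-fold). Col12a1 differed 6.07-fold, Fn1 3.83-fold and Col3a1 2.03-fold. Tagln (120 and 72.9 CPM, 1.65-fold) and Acta2 (42.7 and 41.8 CPM, 1.02-fold) did not reach 2-fold, as in the bulk libraries of that day, where Acta2 had the larger fold of the 2. Such differences were not particular to intermediate cells. With and without BMP4, Col1a1 was at 18.5 and 4.87 CPM in endothelial cells, and Fn1 at 164 and 64.0 CPM in ParE cells. Only 4 of the genes in endothelial and 5 in ParE cells reached 10 CPM and were tested, and none of these was 2-fold lower with BMP4. Below that level in endothelial cells, Acta2 was at 1.60 CPM with BMP4 and 7.48 without. Thy1 was at 1.43 and 5.94 CPM and Col3a1 at 1.75 and 3.33, while Tagln, Col12a1 and Dcn were higher with BMP4. The part of free RNA in this was not tested. By markers, 1857 of the 7125 intermediate cells with BMP4 counted as placenta-like and 1044 of the 6211 without as pluripotent. The marker rule is coarse and was used on cells of unequal depth. With BMP4 it also counted 1341 of 2372 ParE and 496 of 1453 endothelial cells as intermediate. Whether the intermediate class had the same make-up in both samples, and its part in the differences, was not tested.

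To compare shares of cells, each cell was thinned to 4000 UMIs. A UMI of Col1a1 was then found in 30.05% of intermediate cells with BMP4 (95% exact binomial interval 29.0% to 31.1%) and in 8.66% without (7.97% to 9.39%). Endothelial and pluripotent cells are not known as makers of fibrillar collagen, and the shares there were 3.65% with BMP4 (endothelial) and 2.58% without (pluripotent). Median depths before thinning were 19594 UMIs in intermediate and 21763 in endothelial cells with BMP4, and 11892 in intermediate and 15444 in pluripotent cells without. Before thinning the shares in intermediate cells were 51.9% and 19.2%. Postn was found in 36.9% of intermediate and 4.82% of endothelial cells with BMP4, and in 3.62% of intermediate and 0.329% of pluripotent cells without. Fn1 was found in 91.9% of endothelial cells with BMP4 and 66.3% without.

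A UMI of Acta2 was found in 3.68% of intermediate cells with BMP4 and 5.99% without, at nearly the same CPM, so no order was read from the shares. Much of the RNA of Acta2, and of Thy1 and Col3a1, sat in few cells. With BMP4, the 5% of intermediate cells with the most Acta2 UMIs held 95.9% of them, up to 563 in 1 cell, and for Tagln the share was 88.2%. Of the matrix and surface genes it was 90.4% for Thy1, 80.2% for Col3a1, 74.4% for Dcn, 65.0% for Col12a1, 57.3% for Col1a1, 50.7% for Col1a2, 40.04% for Postn and 32.4% for Fn1. Without BMP4 the share was 84.3% for both Acta2 and Tagln and 100% for Col12a1, Dcn and Thy1, whose UMIs were in fewer cells than that 5%.

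UMIs of the 2 contractile genes were found together in part of the cells. With BMP4, Tagln was found in 64.5% of the 262 intermediate cells with an Acta2 UMI and in 6.92% of those without, and Col1a1 in 68.3% and 28.6%. Without BMP4 these were 47.6% and 5.96% for Tagln and 29.3% and 7.35% for Col1a1. In the other direction, 169 of 644 intermediate cells with a thinned Tagln UMI also had one of Acta2 with BMP4, and 177 of 525 without. A cell without a thinned UMI can still hold that RNA, so no share of cells lacking Acta2 was read from this. Type I collagen chains also went together, with Col1a2 in 60.7% of cells with Col1a1 and 25.1% of cells without it in the BMP4 sample, and 24.7% and 6.08% in the other. Cells with 6 or more of the 10 genes made up 3.03% of intermediate cells with BMP4 and 0.451% without, and such cells were at most 0.126% of any other type.

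Across the 17 libraries the 10 genes did not form a single block. As a description over libraries that share cultures and days, log2 levels of Col1a1 and Col1a2 had a Pearson r of 0.95, Acta2 and Tagln of 0.91 and Postn and Fn1 of 0.82, whereas it was -0.15 for Dcn and Tagln and 0.13 for Col1a1 and Fn1. Among 8952 genes with a mean of at least 5 FPKM, those most like the mean of the 8 matrix and surface genes were Anxa1 (r 0.95), Serpine2 (0.93), Ccdc80 (0.93), Wls (0.93) and the fibrillar collagen gene Col5a2 (0.92). Most like Acta2 and Tagln were Pcsk7 (0.98), which overlaps Tagln and may share its reads, then Csrp1 (0.90), Cnn1 (0.90), Actn1 (0.89) and Tpm1 (0.88), the last 4 of which encode proteins of actin fibres or their anchors. By Spearman rho 2 of the first 5 (Anxa1, Ccdc80) were again among the top 5. Of the second 5 it was Pcsk7 alone, and Csrp1, Cnn1, Actn1 and Tpm1 were not among them.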

How the data were processed

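Of 38 samples, 23 are bulk RNA-seq, 2 single-cell, 9 ATAC-seq and 4 Cut&Tag. The authors trimmed bulk reads with Trim Galore 0.6.4, mapped them to mm10 with HISAT2 2.2.1 and deposited FPKM from StringTie 2.2.1, in tables of 17 and 8 libraries, with the JGES day 7 libraries in both. FPKM are scaled to transcript length and library size and keep no read counts, so depth is unknown. For single cells the authors aligned with STAR and deposited a table of unnormalized UMI counts by gene and cell, with a cell type for each cell. Another 10749 cell columns match no sample of this series and were not used. ATAC-seq and Cut&Tag peaks were deposited per library with the peak caller's score. The submitters' processing notes name Bowtie2 2.4.5, SAMtools 1.16.1 and MACS 1.4.2. Scores are at least 50 and not normalized.

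Levels were compared as differences of log2(FPKM + 1) within a table. A gene was tested at 1 FPKM or more in either library and called at a difference of 1. In single cells, UMIs were summed per sample and cell type, and genes tested at 10 CPM or more in either type were called at 2-fold. Exact Poisson and Clopper-Pearson intervals (95%) cover counting error only. No doublet caller was run. With 1 library per condition no test was made. Promoters reached 2 kb to both sides of the most upstream start of a principal transcript (GENCODE M21) of each protein-coding gene. The call scripts were tested on simulated data. Python 3.11.15, numpy 2.4.6, pandas 2.3.3 and scipy 1.17.1 were used.

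The members and lists were chosen with earlier results of these data known. The text always names the 10 genes, and of each other list at most the 2 largest falls and 2 largest rises among genes of 5 FPKM or more. Likeness names the 5 genes of highest Pearson r. Alternatives were another pseudocount, other filters, rescaled libraries, other cell sets and cell assignments, no thinning, narrower promoters and a peak score of at least 100. Changes from day 1 and the count of peaks over whole loci were added after seeing the data. The values of 1 gene of the TGF-beta list that this rule would name are not reported here.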

Additional observations from a re-analysis of the deposited data

Results flagged for a closer look

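For 5 of the 10 genes the difference with BMP4 at day 7 pointed up in both factor sets with Sall4 and down in both sets without it. Of the 17641 genes with at least 1 FPKM in 1 or more of these 8 libraries, 5.53% had the same pattern of signs. Each value rests on 1 library per condition, and the difference between sets was not tested. For Col1a1 the log2 differences were -1.20 in JGE, -0.87 in JGEO, 4.10 in JGES and 1.15 in JGESO. For Col1a2 they were -1.60, -1.13, 3.72 and 0.98, and for Col12a1 -1.45, -0.18, 2.66 and 1.29. Thy1 had -0.87, -0.063, 2.18 and 0.65, and Acta2 -1.44, -0.14, 0.73 and 1.11. The JGEO values of Col12a1, Thy1 and Acta2 are close to 0.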

How the results depend on the processing

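No paired test was run. Each condition has 1 library, and the 1 replicate number the single-cell samples share gives no second pair. Same-day libraries of 2 arms were compared directly, and no fit that takes days as replicates was run. A count was taken as unchanged within 1.5 times, a log2 value within a shift of 0.58 and a share within its 95% interval. All 61 medians of the 10 genes and all 133 counts in bulk RNA stayed within these bounds under every pseudocount, filter and scaling tried, and no single gene past 2-fold changed sign. Of the values of single genes 586 stayed within the bound and 14 moved, all of Dcn or Col12a1 with a pseudocount of 0.1, and with it the difference of Dcn without BMP4 at day 5 from day 0 was -1.15. In single cells, testing from 50 CPM left 5 of the 10 genes with BMP4, of which 5 in ParE, 4 in endothelial and 4 in placenta-like cells were 2-fold lower (10.4%, 12.2% and 8.94% of all genes), and 2 genes without BMP4, of which 1 was lower in each of ParE, endothelial and pluripotent cells (5.09%, 3.28% and 8.99%). With cells assigned by markers, 0 genes were 2-fold lower in placenta-like cells with BMP4 (1.08% of all genes) and 1 in ParE cells without (4.598%), where 1 was higher, and the cause was not tested. With peaks of at least 100, 5 genes kept an ATAC-seq peak in SALL4-delN12 at day 11 (56.2% of all genes), 3 an H3K27ac peak and 3 a SALL4 peak in SALL4-WT (38.8% and 39.3% of all genes), and within 0.5 kb 5 kept a SALL4 peak in SALL4-WT (47.3%). Of 80 shares of cells, 71 moved without thinning. Depth of the bulk and peak libraries is unknown, and without replicates a 2-fold difference of any 1 gene carries no measure of the spread between cultures.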
